A study of Rattus norvegicus with 12 samples.

Results

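Cytosolic sulfotransferases and the enzymes that make their sulfate donor were followed in rat liver as 7 genes of the 40154 in the deposited table: Sult1a1, Sult1b1, Sult1c2, Sult1c3, Sult1e1, Papss1 and Papss2. They were listed by name, with no cut on measured values, at a time when earlier results of these data were known. The table lists 6 of them under these symbols. Sult1e1 was found by its Entrez number only, in a row named ste2. 6 of the 7 had counts and passed the filter on low counts, and Sult1e1 had a count of 0 in every library.

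All rats were Sprague Dawley. Control animals had a normal diet, HFD animals had food high in fat, and the Control+SAMC and HFD+SAMC groups were given S-allylmercaptocysteine (SAMC), an organosulfur compound of aged garlic, beside the same 2 diets. Each of the 4 groups has 3 liver libraries. No genetic change, sex, age, dose or duration is given in the labels used here. RNA was depleted of ribosomal RNA and sequenced in pairs. Replicates carry the numbers of their titles, which are 2, 3 and 4 in HFD and 1, 2 and 3 in the other groups. The labels do not say whether each library is a separate animal, so p-values here measure only the spread between these libraries.

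Cytosolic sulfotransferases move a sulfonate group from the donor PAPS (3′-phosphoadenosine 5′-phosphosulfate) onto hydroxyl or amine groups of drugs, hormones, bile acids and dietary phenols. Most products are more water-soluble and are excreted, but some sulfate esters are reactive and bind DNA. PAPS is made from ATP and inorganic sulfate by the bifunctional PAPS synthases, Papss1 and Papss2, and inorganic sulfate reaches the hepatocyte through membrane carriers or comes from cysteine oxidation. In rat liver the family is strongly sex-biased: Sult1c3 (the enzyme first described as ST1C1) and Sult1e1 are male-predominant, and Sult2a enzymes are female-predominant.

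Sult1c2 and Sult1c3 lie in a group of related 1C genes on chromosome 9. The RefSeq promoter windows of Sult1c2, of its relative RGD1559960 (Sult1c2al1 in RefSeq) and of Sult1c3 are shown first because Sult1c2 carries the diet difference described below and the other 2 are its neighbours of the 1C group. Each window runs from 250 bases before to 50 after the gene's start in build GRCr8, 5′ to 3′ on the gene's strand, and all 7 genes matched such a window. The windows are chr9:7436731-7437030 on the plus strand, chr9:7529294-7529593 on the minus strand and chr9:7594207-7594506 on the minus strand. Capitals mark the stretch that Sult1c2 and Sult1c2al1 share in a local alignment.
Sult1c2: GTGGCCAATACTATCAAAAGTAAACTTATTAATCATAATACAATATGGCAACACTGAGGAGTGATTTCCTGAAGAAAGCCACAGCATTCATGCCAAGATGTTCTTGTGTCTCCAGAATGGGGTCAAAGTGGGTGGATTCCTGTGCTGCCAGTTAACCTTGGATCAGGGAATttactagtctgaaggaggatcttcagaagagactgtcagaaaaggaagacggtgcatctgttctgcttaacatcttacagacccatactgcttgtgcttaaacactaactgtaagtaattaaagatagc
Sult1c2al1: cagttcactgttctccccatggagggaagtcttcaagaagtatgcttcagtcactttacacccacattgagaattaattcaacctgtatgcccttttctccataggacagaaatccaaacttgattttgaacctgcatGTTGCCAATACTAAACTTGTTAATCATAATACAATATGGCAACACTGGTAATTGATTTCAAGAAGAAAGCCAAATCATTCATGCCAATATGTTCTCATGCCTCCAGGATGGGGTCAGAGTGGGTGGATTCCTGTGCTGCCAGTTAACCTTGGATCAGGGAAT
Sult1c3: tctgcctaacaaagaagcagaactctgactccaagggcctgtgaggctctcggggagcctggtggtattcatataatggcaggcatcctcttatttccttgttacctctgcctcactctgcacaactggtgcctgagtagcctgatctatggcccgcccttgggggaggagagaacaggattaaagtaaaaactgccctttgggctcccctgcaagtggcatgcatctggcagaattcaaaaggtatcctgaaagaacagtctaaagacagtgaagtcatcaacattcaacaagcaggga
Of the 171 columns of the Sult1c2 and Sult1c2al1 alignment, 146 were identical (85.4%). The stretch covers bases 1 to 171 of the Sult1c2 window and bases 139 to 300 of the Sult1c2al1 window, so it sits at different distances from the listed starts. The Sult1c3 window aligned to these 2 at 63.0% and 58.3% identity over shorter stretches. Alignment scores, points for matches less penalties, were 14.0 and 14.5 there, against 124 for Sult1c2 and Sult1c2al1. No unrelated windows were aligned, so the Sult1c3 identities do not show shared sequence.

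The libraries held between 45680738 and 61937544 counts on genes, and 15916 genes passed the filter. Albumin took between 7.32% and 21.8% of the counts and all 12 hepatocyte markers were found, in keeping with the liver label. 4 libraries (Control replicate 2, Control+SAMC replicate 1, HFD replicates 2 and 3) had fibrinogen alpha chain (Fga) under 5000 CPM (counts scaled to a common library size and adjusted for composition), and skeletal muscle markers summed to 1012 CPM in HFD+SAMC replicate 3 against at most 1.48 CPM in every library of the other groups. The deposited RPKM values imply different lengths for 1 gene, RGD1562465, in Control and HFD+SAMC than in Control+SAMC and HFD, which divides the libraries into 2 sets. The interaction of diet and SAMC has the same weights as the difference between these sets and cannot be told apart from it. Every comparison that changes the diet alone or SAMC alone sets libraries of different sets against each other, so in those 4 comparisons the group and the set cannot be told apart. The averages of the diet and of the SAMC effect are balanced over the sets. HFD+SAMC against Control and HFD against Control+SAMC lie within a set, but in them diet and SAMC differ together. In whole liver, fewer cells of a type and less RNA per cell cannot be told apart.

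Per length, the most abundant of the 7 transcripts was Sult1a1, the phenol sulfotransferase that handles many drugs and dietary phenols. Its mean level over the 12 libraries was 171.5 RPKM (reads per kilobase of gene model, scaled to library size), rank 369 of all genes in the table. Sult1b1, which sulfates thyroid hormones and small phenols, had a mean of 94.8 RPKM, and Papss2 had 52.7 RPKM. Sult1c3 (3.96 RPKM), Papss1 (2.19 RPKM) and Sult1c2 (1.56 RPKM) were far lower, and Sult1e1 was at 0. The ranges of neighbours in this order overlapped, with 62.1 to 310.4 RPKM for Sult1a1, 53.3 to 159 for Sult1b1 and 36.4 to 69.6 for Papss2. The gap lay between Papss2 and Sult1c3, whose highest library had 8.81 RPKM. Below it, Papss1 (1.34 to 3.36 RPKM) and Sult1c2 (0.237 to 5.19 RPKM) lay within the range of Sult1c3 or across it.

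The hydroxysteroid sulfotransferases stood above all of them. Sult2a1, which sulfates bile acids and steroids, had a mean of 1094 RPKM and Sult2a6 had 595 RPKM. Sult2a1 took between 42.4% and 59.2% of the RPKM summed over 26 rows in each library, 24 of which had counts. These rows were picked as sulfotransferases by symbol or description. They include Man1c1 and Scgb1c1, which are not sulfotransferases, with means of 2.65 and 0.198 RPKM. Sult1a1, Sult1b1, Sult1c2 and Sult1c3 together took 10.3% to 16.2% in Control, 12.5% to 19.8% in Control+SAMC, 5.05% to 10.96% in HFD and 14.1% to 25.4% in HFD+SAMC. The HFD shares lay below those of Control+SAMC and HFD+SAMC in every library, and overlapped those of Control. The lowest share was in HFD replicate 3, and the highest in HFD+SAMC replicate 2. The sums themselves were 1579, 1997 and 1430 RPKM in Control and 2613, 2862 and 2230 RPKM in HFD, so these shares depend on Sult2a1 and Sult2a6 as well as on Sult1a1.

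**Figure D1:**
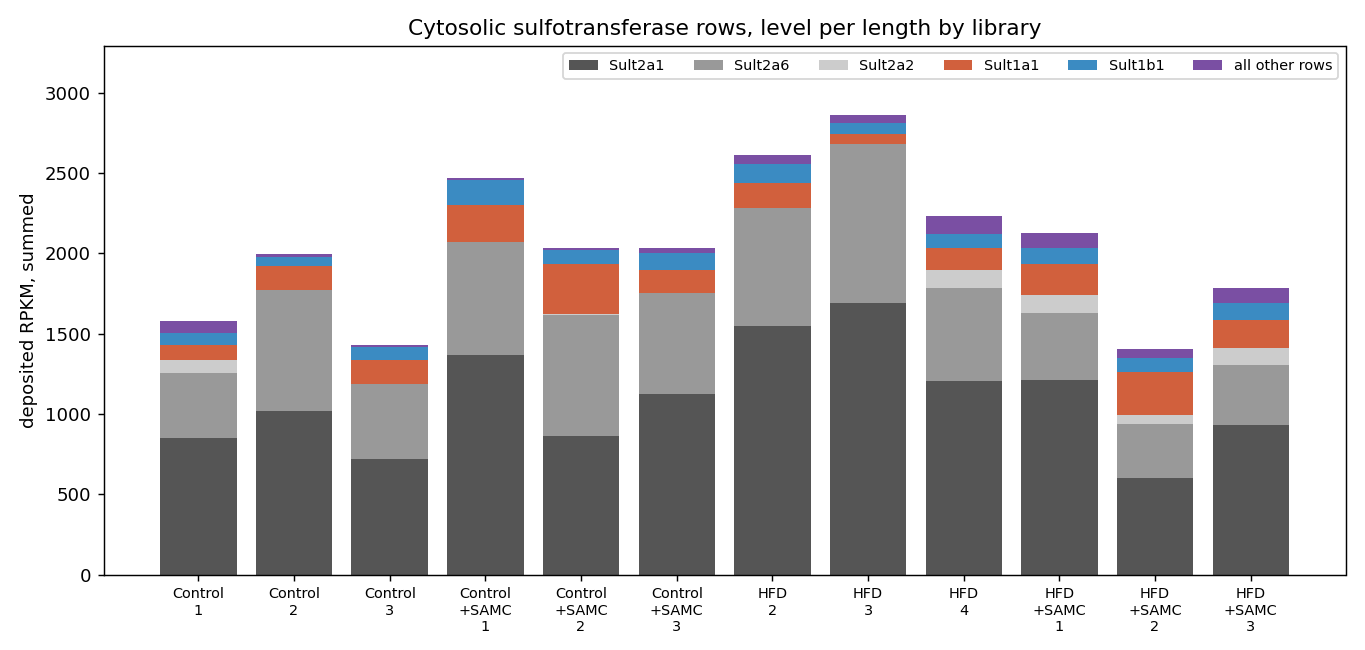
Deposited RPKM of the rows picked as cytosolic sulfotransferases, stacked for each of the 12 libraries. The x axis gives group and replicate, and the y axis summed RPKM. Man1c1 and Scgb1c1, which are not sulfotransferases, are among the small rows. Sult2a1 and Sult2a6 fill most of each bar, the Sult1a1 segment is thinnest in HFD replicate 3, and the Sult2a2 segment is visible in 5 libraries only.

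Sult1c2, a 1C sulfotransferase of low abundance in this liver, was the 1 member that differed past the threshold, and it was highest on the high fat diet without SAMC. In CPM it stood at 2.61, 1.37 and 1.97 in Control replicates 1 to 3. In Control+SAMC it stood at 1.88, 1.04 and 3.17 CPM. In HFD replicates 2, 3 and 4 it stood at 16.9, 17.6 and 10.6 CPM. In HFD+SAMC it stood at 5.39, 2.73 and 4.95 CPM. Every HFD library was above every library of the other 3 groups, and HFD+SAMC lay between HFD and Control without overlapping either. Group means were 1.99 ± 0.620 in Control, 2.03 ± 1.07 in Control+SAMC, 15.01 ± 3.84 in HFD and 4.36 ± 1.43 CPM in HFD+SAMC (SD, n = 3 each).

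**Figure D2:**
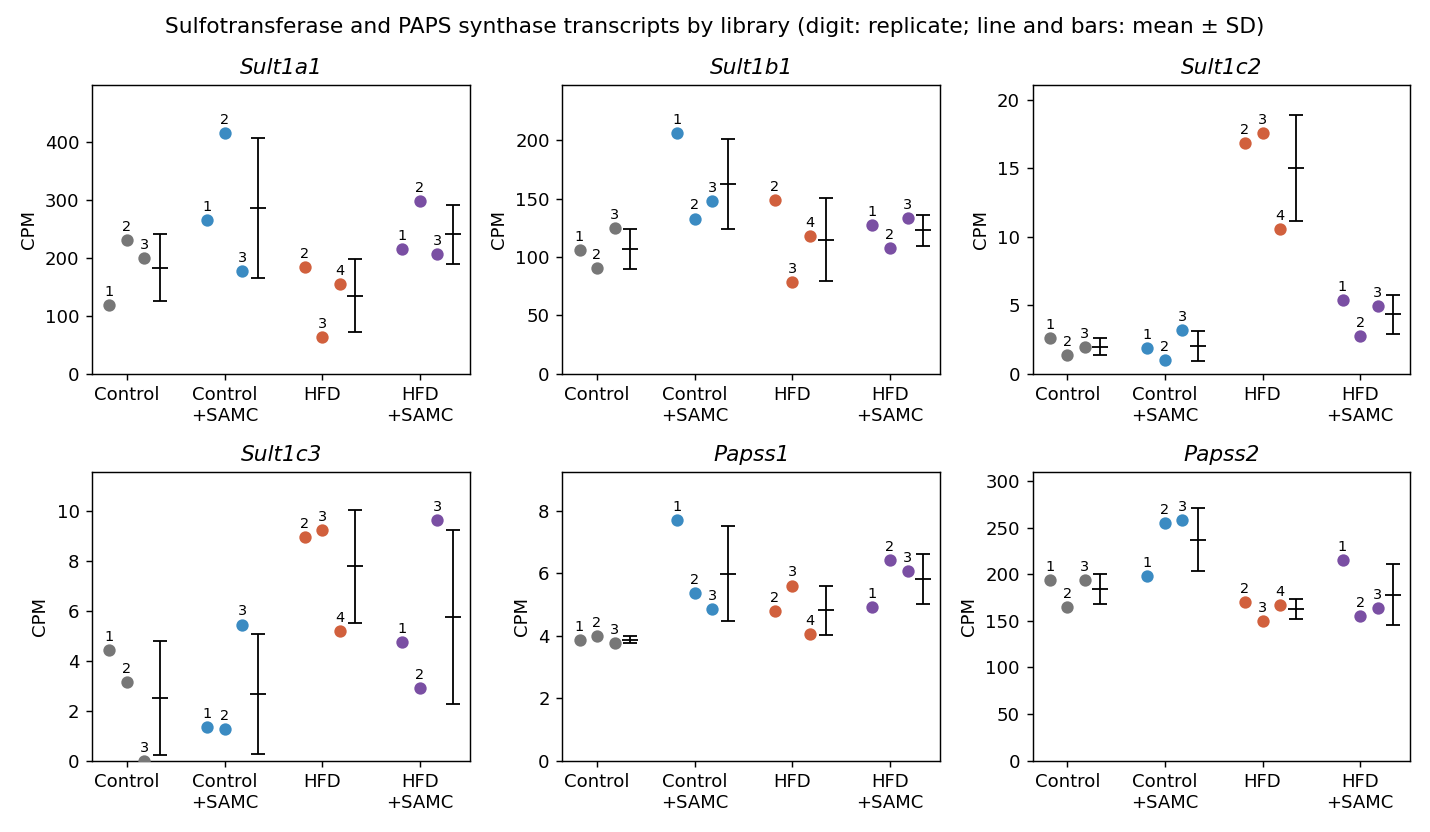
Levels in CPM (y axis, linear from 0) for the 6 members with counts, with 1 point per library labelled by its replicate number and grouped by Control, Control+SAMC, HFD and HFD+SAMC. The line and bars are the mean ± SD of 3 libraries. For Sult1c2 the 3 HFD points sit between 10.6 and 17.6 CPM and all others at or below 5.39 CPM.

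HFD against Control asks what the diet does without the compound. Sult1c2 rose 7.53-fold, a log2 fold change of 2.91 ± 0.42 (SE; 95% interval 2.00 to 3.82; adjusted p = 0.0259, edgeR quasi-likelihood test with Benjamini-Hochberg adjustment over all genes tested). That was 1 of 6 members called, against 0.145% of all genes tested in this comparison. The call was lost without Control replicate 2 (adjusted p = 0.0761), Control replicate 3 (0.154), HFD replicate 2 (0.0971) or HFD replicate 3 (0.133). It was also lost without the 4 libraries of low Fga, which leaves HFD replicate 4 alone in its group (log2 fold change 2.20, adjusted p = 0.707), although that library still held more Sult1c2 than any library outside HFD. Marker sums of other cells moved in the same comparison, and 5 lists did not overlap between HFD and Control. The 12 Kupffer cell and macrophage markers summed to 923 to 1072 CPM in HFD and 562 to 867 CPM in Control, and the 7 cholangiocyte markers to 15.9 to 17.96 and 52.9 to 74.6 CPM. Stellate cell markers summed to 222 to 355 CPM in HFD and 186 to 208 CPM in Control, sinusoidal endothelium markers to 313 to 349 and 362 to 419 CPM, and erythroid markers to 97.6 to 117 and 144 to 199 CPM. The 12 hepatocyte markers overlapped, at 131739 to 174407 CPM in HFD and 169781 to 375057 CPM in Control. No marker found was at 0 in every library, and the part of these shifts in the Sult1c2 difference was not tested.

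The diet effect averaged over both SAMC states used all 12 libraries, and Sult1c2 rose 4.02-fold in it (2.01 ± 0.29 on the log2 scale, adjusted p = 0.0134). Again 1 of 6 members was called, against 0.421% of genes tested. This call stood with each of the 12 libraries left out in turn, with log2 fold changes of 1.85 to 2.24 and adjusted p-values of 0.00742 to 0.0454. It was lost when the 4 libraries of low Fga were all left out (1.63, adjusted p = 0.214). HFD against Control+SAMC lies within a set but differs in both diet and SAMC. There Sult1c2 was higher in HFD by 2.88 ± 0.42 (adjusted p = 0.0161), and 0.364% of genes were called. That call was lost without Control+SAMC replicate 1 (adjusted p = 0.0781), Control+SAMC replicate 2 (0.0551), HFD replicate 2 (0.0754) or HFD replicate 3 (0.0714), and without the low-Fga libraries (0.395). HFD+SAMC against Control+SAMC, the diet step with the compound present, gave 1.10 ± 0.40 for Sult1c2 (adjusted p = 0.358). The groups overlapped. By edgeR 0 of 6 members passed, against 0.0628% of genes, and 2 of 6 had an unadjusted p under 0.05, against 10.9%. By DESeq2 0 of 6 passed.

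HFD+SAMC against HFD asks what the compound does on the high fat diet. Here Sult1c2 had a log2 fold change of -1.78 ± 0.40 (95% interval -2.65 to -0.92) with no overlap between the groups, and the adjusted p was 0.191. DESeq2 gave nearly the same size (-1.79) and called it, with an adjusted p of 0.00124. By edgeR 0 of 6 members passed and 0.0503% of all genes did, with 1 of the 6 at an unadjusted p under 0.05, against 10.6% of genes. By DESeq2 1 of 6 passed, in a comparison where DESeq2 called 234 genes and edgeR 8. DESeq2 was run on every gene with a count, all but 14180 of the 40154, and the share it called was not worked out. Marker sums moved here too: the Kupffer cell and macrophage markers summed to 763 to 907 CPM in HFD+SAMC and the cholangiocyte markers to 25.1 to 34.1 CPM, neither overlapping HFD, while the other lists overlapped. HFD+SAMC replicate 3, the library with muscle markers, lay between the other HFD+SAMC libraries in Sult1c2. The part of these shifts in the Sult1c2 difference was not tested. On the normal diet SAMC left Sult1c2 at 0.03 ± 0.40 (95% interval -0.85 to 0.91, adjusted p = 0.989), with overlapping groups. That value changed sign without Control replicate 2 (-0.18) or Control+SAMC replicate 3 (-0.45). The difference between these SAMC steps was -1.81 ± 0.56 with an adjusted p of 0.489, and it cannot be told apart from the difference between the 2 sets. For this interaction 0 of 6 members passed by edgeR or DESeq2, against 0.145% of genes by edgeR, and 1 of 6 had an unadjusted p under 0.05, against 7.41%. HFD+SAMC was above Control by 1.13 ± 0.40 (adjusted p = 0.274), without overlap and within 1 set. There 0 of 6 members passed by edgeR or DESeq2, against 0.176% of genes by edgeR, and 2 of 6 had an unadjusted p under 0.05, against 12.6%.

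**Figure D3:**
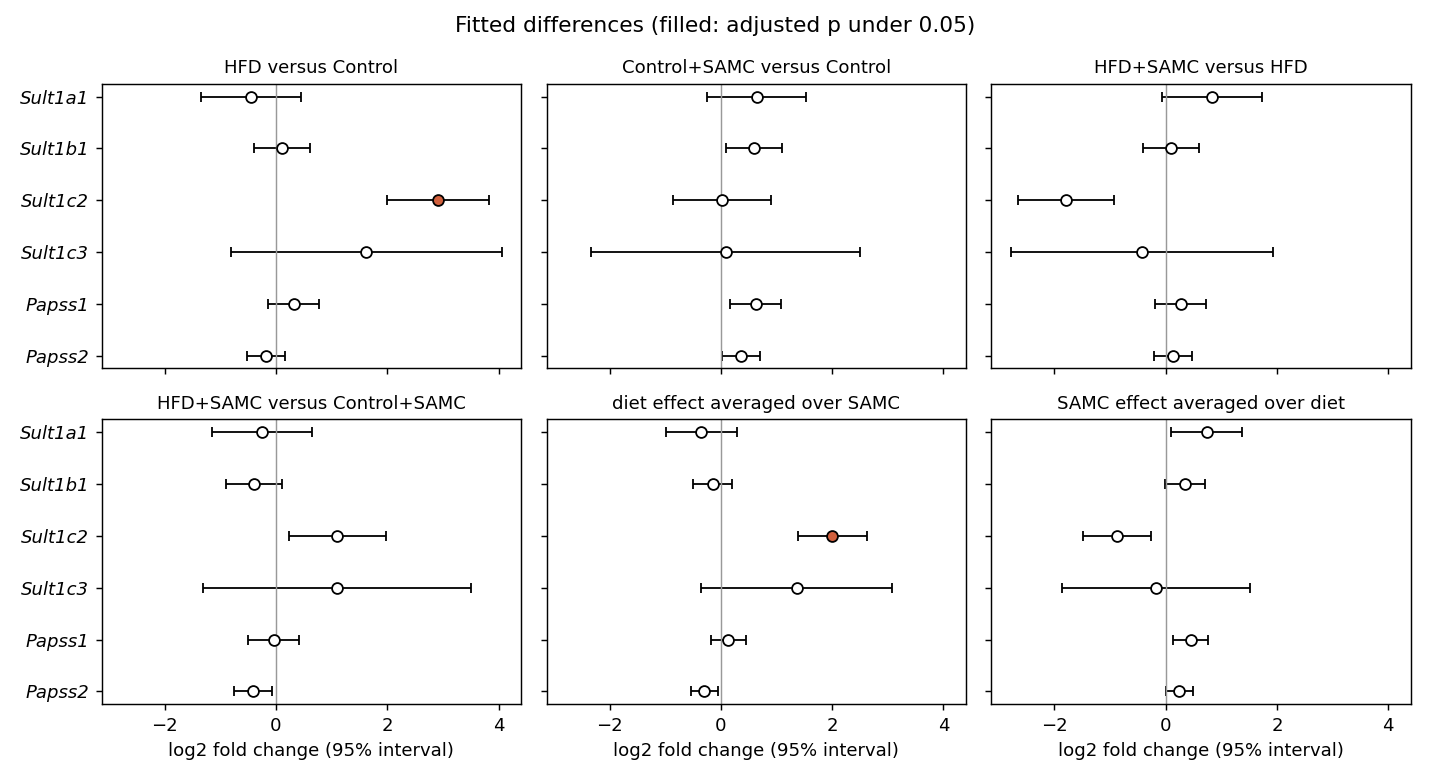
Fitted log2 fold changes (x axis, points) with 95% intervals (bars) for the 6 tested members in 6 comparisons, from edgeR's fit over all genes. Filled points have an adjusted p under 0.05: Sult1c2 in HFD versus Control (2.91) and in the diet effect averaged over SAMC (2.01).

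Sult1c3, which activates N-hydroxy arylamides in male rat liver, had low and scattered levels. It stood at 4.44, 3.13 and 0 CPM in Control and 1.33, 1.25 and 5.46 CPM in Control+SAMC. In HFD it stood at 8.95, 9.24 and 5.18 CPM, and in HFD+SAMC at 4.77, 2.90 and 9.66 CPM. The 3 HFD libraries were above the 3 Control libraries, while both SAMC groups held 1 library as high as HFD. In HFD+SAMC that library was replicate 3, the one with skeletal muscle markers, and a part of this in its Sult1c3 level was not tested. Control replicate 3 had no count at all, where 3 counts would be 0.0673 CPM. HFD against Control gave a log2 fold change of 1.62 ± 1.09 (adjusted p = 0.641), and 1.03 without Control replicate 3. The diet effect averaged over SAMC was 1.36 ± 0.77 (adjusted p = 0.482). These standard errors are the largest of the 6 members, so a difference of the size seen in Sult1c2 was not resolved for Sult1c3.

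The other rows described as 1C sulfotransferases were read beside them. Apart from Sult1c2a they were picked by their descriptions after the table was seen, and copies of near-identical sequence could share reads, which would make the split of counts between 1C rows uncertain. The identity of these transcripts and the handling of reads with several matches were not measured. The deposited table holds 9 such rows at chr9:4072813-4978847 (build not named in the sources used here), of which 7 were tested. Sult1c2 is at chr9:4654278-4685418 and Sult1c3 at chr9:4931038-4978847, both listed on the minus strand, where RefSeq's GRCr8 has Sult1c2 on the plus strand. The counts of all 9 rows summed to 37.0, 59.2 and 28.1 CPM in Control and 26.5, 17.3 and 72.7 CPM in Control+SAMC. In HFD they summed to 131.8, 98.4 and 63.3 CPM, and in HFD+SAMC to 43.0, 28.9 and 45.6 CPM. HFD replicates 2 and 3 were above every other library, whereas HFD replicate 4 was below Control+SAMC replicate 3. Sult1c2 was 2.31% to 7.06% of this sum in Control, 4.36% to 7.09% in Control+SAMC, 12.8% to 17.8% in HFD and 9.45% to 12.5% in HFD+SAMC. Its share of the 1C counts therefore separated the diets without overlap, in a ratio that is taken within each library.

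All 7 tested 1C rows had a higher mean in HFD than in Control, and of these Sult1c2 passed the threshold and the other 6 did not. All 7 also had a higher mean in HFD than in HFD+SAMC. The ratio of these means was 3.45 for Sult1c2, 4.55 for LOC100910526, 3.98 for LOC100910057 and 1.35 for Sult1c3. For Sult1c2, Sult1c2a, RGD1559960, LOC100910057 and LOC100910526 HFD and HFD+SAMC did not overlap, and for Sult1c3 and RGD1562392 they did. Of all genes tested, 18.8% did not overlap there, and 14.7% did not in HFD against Control. How many of all genes had a higher mean in HFD was not worked out. RGD1559960, whose promoter window is shown above, stood at 8.06, 5.87 and 5.67 CPM in Control, 6.38, 3.72 and 10.2 in Control+SAMC, 22.7, 19.5 and 10.1 in HFD and 7.67, 6.51 and 7.71 in HFD+SAMC. HFD and Control did not overlap, with a log2 fold change of 1.41 ± 0.35 and an adjusted p of 0.191. Sult1c2a, the most abundant 1C row, stood at 15.9, 43.7 and 17.7 CPM in Control and 61.0, 44.4 and 29.7 CPM in HFD. Its groups overlapped, with a log2 fold change of 0.81 ± 0.58 and an adjusted p of 0.671. LOC100910526 had 2.52 ± 0.65 in the same comparison (adjusted p = 0.198). Over the 12 libraries, which differ in group, log2 CPM of Sult1c2 followed that of RGD1559960 with a Pearson r of 0.92 (Spearman 0.87) and that of Sult1c3 with 0.55 (Spearman 0.81), and reads shared between copies could enter these values.

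**Figure D4:**
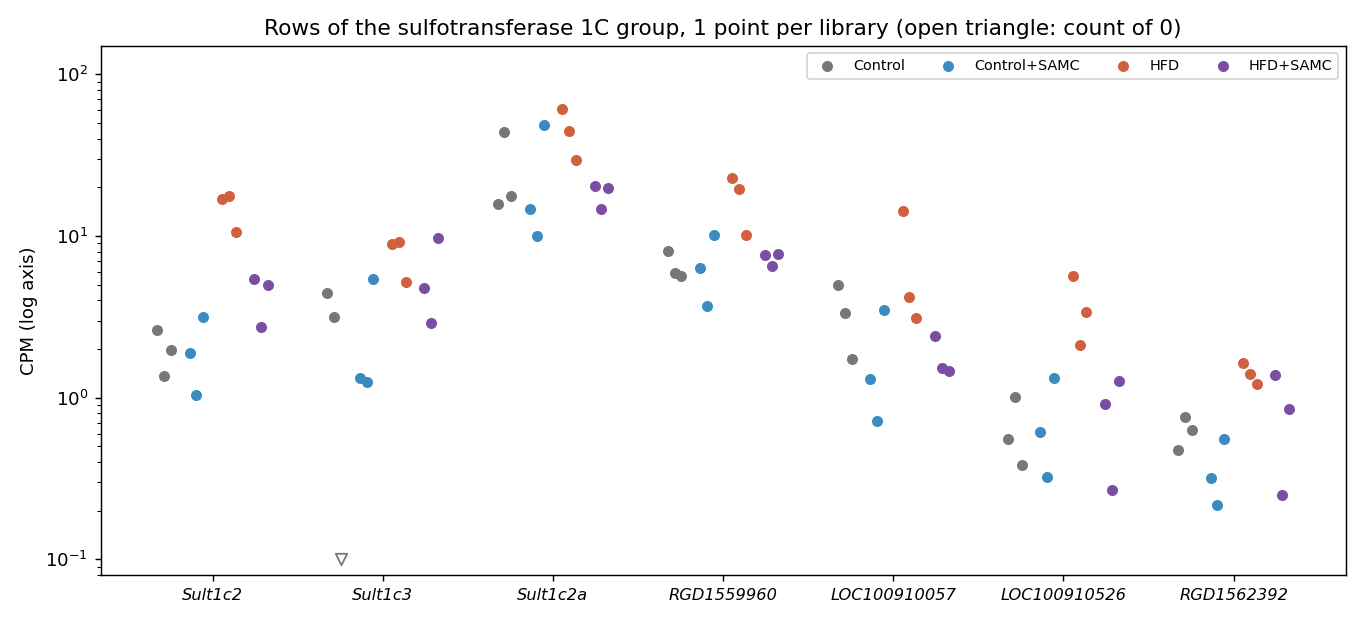
Levels in CPM (y axis, log scale) of the 7 tested rows of the sulfotransferase 1C group, 1 point per library and coloured by group, with an open triangle for the count of 0. Sult1c2 shows the widest gap between the HFD points and the rest, and in Sult1c3, RGD1559960, LOC100910526 and RGD1562392 too every HFD point is above every Control point. Of all genes tested, 14.7% did not overlap between HFD and Control.

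Sult1a1, at chr1:198100586-198104106 on the minus strand in the deposited table, varied 6.45-fold in CPM between its extreme libraries, and no comparison of groups passed the threshold. It stood at 119, 232 and 200 CPM in Control replicates 1 to 3 and 266, 416 and 177 CPM in Control+SAMC. In HFD replicates 2, 3 and 4 it stood at 185, 64.4 and 155 CPM, and in HFD+SAMC at 216, 299 and 207 CPM. The lowest library was HFD replicate 3 and the highest Control+SAMC replicate 2. HFD+SAMC lay above HFD without overlap, and the other pairs of groups overlapped. HFD+SAMC against HFD gave a log2 fold change of 0.84 ± 0.41 (95% interval -0.06 to 1.73, adjusted p = 0.497). SAMC on the normal diet gave 0.64 ± 0.41 (95% interval -0.25 to 1.54, adjusted p = 0.655), and the SAMC effect averaged over diet 0.74 ± 0.29 (95% interval 0.10 to 1.37, unadjusted p = 0.0264, adjusted p = 0.329). HFD against Control gave -0.45 ± 0.41 (adjusted p = 0.745). The intervals of both SAMC steps hold 0 and a log2 fold change of 1.

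Sult1b1, at chr14:22142412-22155246 on the plus strand, varied less, 2.63-fold between the extreme libraries. It stood at 106, 90.3 and 125 CPM in Control, 206, 133 and 148 in Control+SAMC, 149, 78.3 and 118 in HFD and 128, 108 and 134 in HFD+SAMC. Control+SAMC was above Control in every library, with a log2 fold change of 0.60 ± 0.23 (95% interval 0.10 to 1.11, adjusted p = 0.418). HFD, with means of 115 ± 35.4 against 107 ± 17.2 CPM in Control (SD, n = 3 each), gave 0.10 ± 0.23, which changed sign without Control replicate 2 (-0.01) or HFD replicate 2 (-0.13). HFD+SAMC against HFD gave 0.10 ± 0.23 (95% interval -0.40 to 0.60, adjusted p = 0.922). The interaction that compares the SAMC steps was -0.51 ± 0.33 (adjusted p = 0.785).

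Sult1e1, the estrogen sulfotransferase, is listed as ste2 at chr14:22070861-22089264 and had no count in any of the 12 libraries. A count of 0 allows up to 0.0461 to 0.0734 CPM in a library (3 counts, counting error only). 14180 genes of the table had no count. They include Sult1d1, which lies near Sult1e1 on chromosome 14, and Impad1, a phosphatase of sulfate metabolism that most tissues express. Whether a 0 in this table reflects a silent gene or the counting was not tested. The labels give no sex, so transcripts of sex-biased expression were read from a list, of which 9 were found. The female-specific Cyp2c12 stood at 2561 to 4571 CPM and Xist, from the inactive X, at 602 to 872 CPM. The male-specific Cyp2c11 reached 0.386 CPM at most, and Kdm5d and Eif2s3y on chromosome Y stood at 0 and at most 0.0187 CPM, while Ddx3y, listed on chromosome 13, stood at 0.399 to 1.41 CPM.

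The PAPS synthases divide into a major and a minor transcript here. Papss2 is at chr1:251145264-251230716 and Papss1 at chr2:236605695-236680772, both on the plus strand of the deposited table. Papss2 made up 94.1% to 97.2% of the RPKM of the pair in each library. It stood at 193, 165 and 194 CPM in Control, 198, 255 and 258 in Control+SAMC, 170.04, 150.3 and 167 in HFD and 215, 155 and 164 in HFD+SAMC. Control+SAMC was above Control and above HFD in every library. The log2 fold change against Control was 0.36 ± 0.16 (95% interval 0.02 to 0.71, adjusted p = 0.487). HFD against Control+SAMC, within 1 set, gave -0.55 ± 0.16 with an adjusted p of 0.163 by edgeR and 0.0480 by DESeq2, which called 538 genes there to edgeR's 58. The diet effect averaged over SAMC was -0.30 ± 0.11 (adjusted p = 0.271), and HFD+SAMC against HFD 0.13 ± 0.16 (adjusted p = 0.807).

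Papss1 stood at 3.85, 3.99 and 3.77 CPM in Control, the tightest group of any member. In Control+SAMC it stood at 7.71, 5.36 and 4.87 CPM, in HFD at 4.8, 5.60 and 4.04 CPM and in HFD+SAMC at 4.91, 6.43 and 6.08 CPM. Every library of the other 3 groups was above every Control library. Against Control the log2 fold change was 0.63 ± 0.21 in Control+SAMC (adjusted p = 0.358), 0.32 ± 0.21 in HFD (adjusted p = 0.630) and 0.59 ± 0.21 in HFD+SAMC (adjusted p = 0.280). The SAMC effect averaged over diet was 0.45 ± 0.15 (95% interval 0.13 to 0.77, unadjusted p = 0.0104, adjusted p = 0.249).

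Read as a list, the 6 tested members all had a positive log2 fold change in Control+SAMC against Control, with a median of 0.48 where the median of all genes tested was -0.01. The values of Sult1c2 (0.03 ± 0.40) and Sult1c3 (0.08 ± 1.08) were smaller than their standard errors. Both changed sign with the replicate block (-0.00992 and -0.18). No member passed there by edgeR (0.119% of genes tested did) or by DESeq2, and 3 of 6 had an unadjusted p under 0.05, where 9.78% of all genes did. 3 of 6 (Sult1b1, Papss1 and Papss2) did not overlap, against 13.5% of all genes. In HFD against Control 3 of 6 did not overlap (Sult1c2, Sult1c3 and Papss1), against 14.7%, and the median was 0.21. In HFD+SAMC against HFD 2 of 6 did not overlap (Sult1a1 and Sult1c2), against 18.8%, and the median was 0.12. In HFD+SAMC against Control+SAMC all 6 overlapped, where 17.8% of all genes did not. In HFD+SAMC against Control 2 of 6 did not overlap (Sult1c2 and Papss1), against 19.7%, and in HFD against Control+SAMC 2 of 6 (Sult1c2 and Papss2), against 17.1%. For the SAMC effect averaged over diet 0 of 6 passed by edgeR or DESeq2 (0.22% of genes by edgeR), and 4 of 6 had an unadjusted p under 0.05, against 12.4% of genes. Those 4 were Sult1a1, Papss1 and Papss2, with positive values, and Sult1c2, with -0.88 ± 0.28. The 6 genes share libraries, and their number is too small to set the list apart from other genes.

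The rest of the sulfate pathway was read by the same test. Of the other genes of the list, covering sulfate carriers, PAPS transporters, sulfatases, Golgi sulfotransferases and cysteine oxidation, 28 were tested and 0 passed by edgeR in any of the 9 comparisons. At an unadjusted p under 0.05 there were 3 of 28 in HFD against Control (10.7% of all genes), 4 in HFD+SAMC against HFD (10.6%), 2 in Control+SAMC against Control (9.78%) and 6 in HFD+SAMC against Control+SAMC (10.9%). There were 7 in the averaged diet effect (13.6% of all genes), 6 in the averaged SAMC effect (12.4%), 4 in the interaction (7.41%), 7 in HFD+SAMC against Control (12.6%) and 5 in HFD against Control+SAMC (13%). DESeq2 called at most 2 of the 28 in a comparison, and 121 to 538 genes in all. It was run on every gene with a count, which is all but 14180 of the 40154 genes. Its shares of these genes were not worked out, so the 28 were not set against a DESeq2 background here. Their median was -0.01 in HFD against Control and 0.00 in Control+SAMC against Control. The 6 most abundant were Sult2a1, Sult2a6, the cysteine dioxygenase Cdo1 (313 RPKM), the thiosulfate sulfurtransferase Tst (232 RPKM), the basolateral sulfate carrier Slc26a1 (92.2 RPKM) and the mercaptopyruvate sulfurtransferase Mpst (74.99 RPKM). Sult2a6 stood at 700.0 ± 142 CPM in HFD and 349 ± 39.6 CPM in HFD+SAMC (SD, n = 3 each), without overlap, and its log2 fold change of -1.005 ± 0.27 had an adjusted p of 0.257 by edgeR and passed by DESeq2. Cdo1 had -0.52 ± 0.15 in the averaged diet effect (adjusted p = 0.173), and passed there by DESeq2.

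Receptors known to control sulfotransferase genes were read beside them. Nr1i3 (CAR, the receptor that senses phenobarbital-like compounds) stood at 2.84, 4.97 and 4.73 CPM in Control, 9.10, 5.59 and 1.88 in Control+SAMC, 20.4, 23.1 and 10.4 in HFD and 24.3, 19.9 and 21.7 in HFD+SAMC. All 6 high fat libraries were above all 6 others, and Nr1i3 rose by 2.05 ± 0.34 on the log2 scale in the averaged diet effect (adjusted p = 0.0314), a call that stood in 3 of the 12 fits with 1 library left out (adjusted p up to 0.0960). HFD+SAMC and HFD overlapped for Nr1i3 and did not for Sult1c2, and a part of Nr1i3 in the Sult1c2 difference was not tested. Nr1i2 (PXR), Ahr and Nfe2l2 (Nrf2) did not pass in any comparison. Cyp2b1 and Cyp2b2, the P450s that mark CAR activity, rose with diet (4.91 ± 0.48 and 4.72 ± 0.49 in HFD against Control) and with SAMC averaged over diet (2.64 ± 0.31 and 2.62 ± 0.31). Akr7a3, an aflatoxin aldehyde reductase (3.09 ± 0.22), and Gstp1, a glutathione transferase (1.69 ± 0.09), also rose with SAMC averaged over diet, and each of these values passed the threshold. Cyp2b2 in HFD against Control lost its call without Control replicate 3 (adjusted p = 0.0511), and the others kept theirs with each library left out in turn. In the SAMC effect averaged over diet the members ranged from the -0.88 of Sult1c2 to the 0.74 of Sult1a1, and none passed.

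Of the motifs searched on both strands of the 300-base RefSeq windows, the GC box GGGCGG occurred 4 times in Papss1, 2 times in Papss2 and once each in Sult1a1 and Sult1c3, and 33.1% of all 33469 windows hold it. The nuclear receptor half-site AGGTCA was found in Sult1e1 alone (16.2% of windows), and the dioxin response core GCGTG in Papss1 alone, with 3 matches (29.7% of windows). The antioxidant response core TGACNNNGC was in none of the 7 (12.1% of windows). The Papss windows were GC-rich, 68.3% for Papss1 and 70.3% for Papss2, above the upper quartile of all windows (60.3%), and Sult1b1 (38.7%), Sult1e1 (39.3%) and Sult1c2 (41.0%) were below the lower quartile (44.7%). These matches describe letters in a window and say nothing of binding.

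The genes whose log2 CPM followed a member most closely over the 12 libraries were taken as the 3 of highest correlation among all tested genes with a full symbol and a mean log2 CPM of at least 1, over libraries that share groups and library composition. For Sult1c2 they were Agmo, which cleaves ether lipids (Pearson r 0.94), the cytochrome oxidase assembly factor Cox16 (0.89) and the P450 Cyp3a18 (0.89). For Sult1a1 they were Adam15 (0.96), Ubqln2 (0.95) and Ergic1 (0.90), and for Sult1b1 Ap1g1 (0.86), Atp5g1 (0.84) and Spryd7 (0.84). For Sult1c3 they were Aldh16a1 (0.86), Capn1 (0.82) and Slc13a3 (0.80). For Papss1 they were Wdr35 (0.94), Cryl1 (0.91) and Rhoc (0.89), and for Papss2 Huwe1 (0.91), Nrdc (0.90) and Nudt4 (0.90). Among the members themselves Sult1c2 ran opposite to Sult1a1 (r -0.68, Spearman -0.66). The PAPS synthases did not follow each other (r -0.06, Spearman -0.17).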

How the data were processed

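Liver RNA of 12 libraries in 4 groups of 3 was analysed. Per the labels' protocols, the authors aligned reads with HISAT2 and counted them per gene with HTSeq, giving the deposited counts. Trimmomatic 0.36 is named in the submitters' processing notes. The deposited RPKM divides counts by the listed gene length and the library's total, as the values show, and was used only to compare levels between genes. No genome build or strand setting is given in the sources used here.

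All genes with enough counts by filterByExpr were fitted together in R 4.3.3 with edgeR 4.0.16 (TMM scaling, quasi-likelihood test, Benjamini-Hochberg adjustment over 15916 genes, threshold 0.05). Intervals use the test's moderated degrees of freedom. CPM uses the same scaling, and log2 CPM a prior count of 2. The script was tested on simulated data. DESeq2 1.42.0, its size factors, no filter, a replicate block, leaving out libraries of low Fga and leaving out each library were alternatives. The sequencing depth limits low genes: 3 counts are 0.0461 to 0.0734 CPM. No member row overlaps another row.

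The genes and lists were chosen with earlier results of these data known. Text names all 7 genes, the 6 most abundant other pathway genes and any past the threshold, the receptors and readouts that passed plus Nr1i2, Nr1i3, Ahr and Nfe2l2, and per member the 3 genes of highest correlation. The further 1C rows and the Sult2a2 pair were added after the data were seen.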

Additional observations from a re-analysis of the deposited data

How the results depend on the processing

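Of the 54 fitted member values (6 genes in 9 comparisons), all 54 kept direction and call with DESeq2's size factors and with no filter, 52 with DESeq2 (2 gained a call) and 52 with the replicate block (2 changed sign). Without the 4 libraries of low Fga, which leaves 2, 2, 1 and 3 libraries in Control, Control+SAMC, HFD and HFD+SAMC, 45 kept both, 3 lost a call and 6 changed sign; the lone HFD library is then assumed to vary like the other groups. Replicate numbers do not pair the libraries: of 15 same-numbered pairs 2 had a correlation of deviations over 0.1 (range -0.22 to 0.25), and 1 of 12 libraries correlated best with its own number.

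Members past the threshold went to 0 without the low-Fga libraries in HFD versus Control, the averaged diet effect and HFD versus Control+SAMC, and with DESeq2 to 1 in HFD+SAMC versus HFD and 2 in HFD versus Control+SAMC. With 1 library left out they ranged from 0 to 1 in HFD versus Control and in HFD versus Control+SAMC.

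Genes past the threshold were 23 in HFD versus Control, 8 in HFD+SAMC versus HFD, 19 in Control+SAMC versus Control, 10 in HFD+SAMC versus Control+SAMC, 67 in the averaged diet effect, 35 in the averaged SAMC effect, 23 in the interaction, 28 in HFD+SAMC versus Control and 58 in HFD versus Control+SAMC. In that order DESeq2 called 293, 234, 203, 253, 508, 402, 121, 438 and 538. No filter gave 19 in HFD+SAMC versus HFD, 21 in HFD+SAMC versus Control+SAMC, 67 in the averaged SAMC effect and 61 in HFD+SAMC versus Control. The replicate block gave 6 in Control+SAMC versus Control, 2 in HFD+SAMC versus Control+SAMC, 10 in the averaged SAMC effect and 9 in the interaction. Without the low-Fga libraries there were 3 in HFD versus Control, 0 in HFD+SAMC versus HFD, 25 in HFD+SAMC versus Control+SAMC, 31 in the averaged diet effect, 2 in the interaction and 31 in HFD versus Control+SAMC. With 1 library left out the counts ranged, in the first order, over 4 to 53, 1 to 27, 3 to 23, 1 to 45, 30 to 130, 13 to 68, 7 to 19, 7 to 53 and 5 to 140. The cause of these shifts was not tested.

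No value that changed sign had passed the threshold. With the replicate block Control+SAMC versus Control was -0.00992 for Sult1c2 and -0.18 for Sult1c3. Without the low-Fga libraries the interaction was -0.26 for Sult1a1 and 0.11 for Papss1, Control+SAMC versus Control -0.12 for Sult1c2, HFD+SAMC versus HFD 0.16 and the averaged SAMC effect 0.37 for Sult1c3, HFD+SAMC versus Control+SAMC 0.19 for Papss1, and HFD versus Control -0.11 for LOC100910057. With 1 library left out Sult1a1 ranged over -0.50 to 0.12 in HFD+SAMC versus Control+SAMC and -0.14 to 0.57 in the interaction. Sult1b1 ranged over -0.13 to 0.32 in HFD versus Control and -0.12 to 0.33 in HFD+SAMC versus HFD, and Sult1c2 over -0.45 to 0.33 in Control+SAMC versus Control. Sult1c3 ranged over -0.97 to 0.77 in Control+SAMC versus Control, -0.70 to 0.17 in the averaged SAMC effect and -1.21 to 0.54 in the interaction. Papss1 ranged over -0.17 to 0.18 in HFD+SAMC versus Control+SAMC, and Papss2 over -0.0214 to 0.23 in HFD+SAMC versus HFD and -0.21 to 0.0410 in HFD+SAMC versus Control.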

Other observations

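2 hydroxysteroid sulfotransferase rows split the libraries across the groups. Sult2a2 stood at 104, 4.14 and 1.19 CPM in Control, 3.42, 6.72 and 1.66 in Control+SAMC, 1.38, 1.31 and 139 in HFD and 132, 69.5 and 127 in HFD+SAMC. LOC100912485, described as alcohol sulfotransferase-like, stood at 36.0, 0.220 and 0.157 CPM in Control, 0.127, 0.367 and 0.0613 in Control+SAMC, 0.129, 0.0921 and 47.6 in HFD and 40.4, 22.2 and 44.3 in HFD+SAMC. The same 5 libraries were high in both rows: Control replicate 1, HFD replicate 4 and the 3 of HFD+SAMC. The 4 libraries of low Fga are all among the 7 that were low in both rows. The Pearson r of log2 CPM between these rows was 0.99 over the 12 libraries (Spearman 0.89), and copies of near-identical sequence could share reads. No member followed this split: r with Sult2a2 was 0.11 for Sult1a1, 0.03 for Sult1c2 and 0.33 for Sult1c3.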
